A study of Mus musculus with 4 samples.

Results

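The genes described here are 10 that build or switch on the contractile apparatus of smooth muscle: Acta2, Actg2, Myh11, Tagln, Cnn1, Des, Smtn, Myocd, Lmod1 and Myl9. They were chosen by name, and every array probe whose RefSeq accession belongs to one of them was read in every organ. Probes were found for 9 of the 10, 13 probes in all among the 41174 on the array. No probe matched Myl9, the regulatory light chain of smooth muscle myosin, and it is not analysed here. All 13 probes were well above background on all 4 arrays, so every value of these genes is a measured level and none is a bound. Across the array, 16995 genes had a symbol.

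RNA came from organ primordia of ICR mouse embryos, an outbred strain, collected at E11.5. The groups are lung, esophagus, stomach (labelled "gustric") and intestine, with no treatment or altered gene named, 1 array per organ, all on 1 slide read in 1 scan in 1 colour. The extraction notes of all 4 samples name the stomach, so the organs rest on the titles and tissue labels. With 1 array per organ there is no replicate, no test and no p-value, and whether an array held 1 embryo or several is not given in the sources used here. In whole dissected organs, fewer cells of a type and less RNA per cell cannot be told apart.

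Visceral smooth muscle forms from the mesenchyme around the gut epithelium. In those cells the serum response factor SRF sits on short DNA elements, the CArG boxes, in front of contractile genes, and its muscle coactivator myocardin, encoded by Myocd, turns them on together. Early contractile genes such as Acta2 and Tagln mark the onset of the program, and the smooth muscle myosin chain Myh11 is held to be its most specific marker. Several of these genes are not confined to smooth muscle: Acta2, Tagln, Cnn1, Myocd and Des are also transcribed in the embryonic heart.

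A level is the log2 processed signal minus the 75th percentile of the array's own non-control signals, so 0 is the brightness of the upper quartile. Levels compare arrays for 1 probe, and levels of different probes are not set against each other. The lung array was dimmer, with 39.0% of spots well above background against 67.9% to 74.0% on the other arrays, a 75th percentile signal of 33.4 against 334 to 1023, and a lowest resolvable level of −2.45. A spot copied at least 8 times on an array varied by a median SD of 0.12 in lung, 0.08 in esophagus, 0.07 in the stomach and 0.07 in intestine over 124 probes. A wider yardstick is the SD, between probes of 1 gene, of their difference in the same pair of arrays: 1.20 for lung over esophagus, 1.1 for lung over stomach, 0.91 for lung over intestine, 0.51 for esophagus over stomach, 1.04 for esophagus over intestine and 0.75 for stomach over intestine, all log2. Marker genes of the organs went with the labels: Nkx2-1 was highest in lung at 2.41, Barx1 in stomach at 4.43 and Cdx2 in intestine at 1.85, and Sox2, a foregut factor, was highest in esophagus at 1.04. Nkx2-1, a gene of lung and trachea, was also well above background in esophagus, at −1.16, and not in stomach or intestine.

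All 9 measured genes had their highest level on the esophagus array, at each of the 13 probes. Over all genes well above background on the 4 arrays, 13.5% were highest there. Among esophagus, stomach and intestine alone, without the dim lung array, esophagus was again highest for 9 of 9, against 27.1% of genes. The exceptions under another scaling were Des and Smtn, highest in intestine under median centring, and Des alone, highest in intestine under quantile normalization and in lung under normexp background correction. By brightest probes, Myh11, Cnn1, Tagln and Lmod1 stood furthest above the other gut segments. Smtn and Acta2 stood least above stomach, and Des and Smtn least above intestine.

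**Figure D1:**
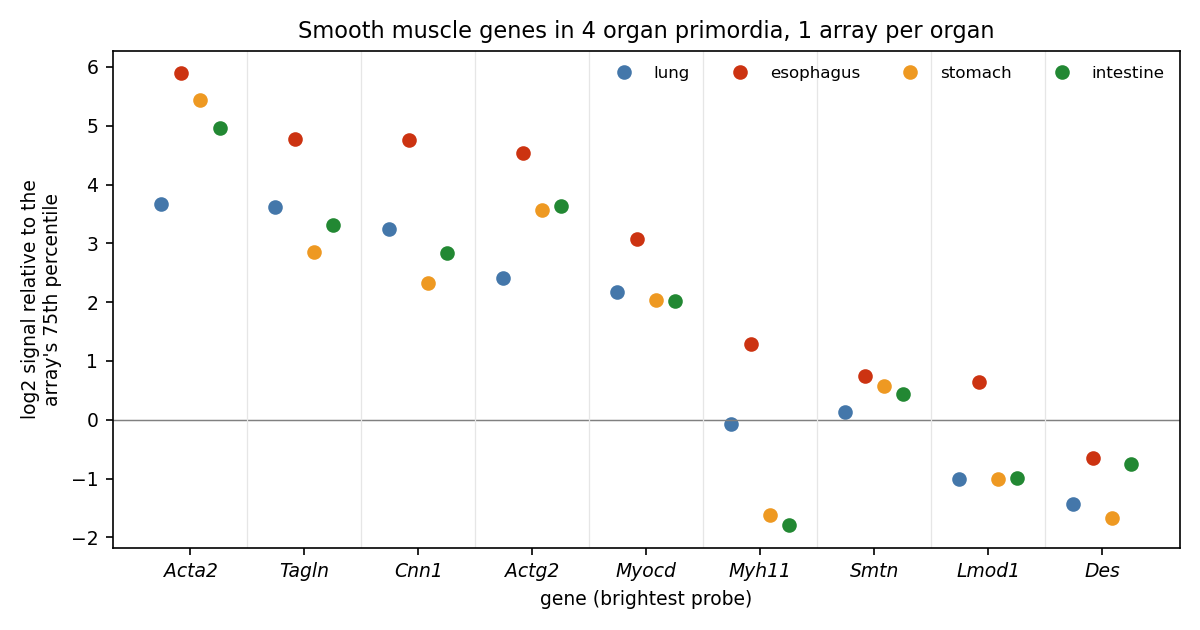
Level of each gene's brightest probe (log2 signal relative to the array's 75th percentile, vertical axis) on the lung, esophagus, stomach and intestine arrays, 1 point per array. Esophagus is the top point for all 9 genes on this scale (for 7 of 9 under median centring), with a gap of 1.35 over the next organ for Myh11 and of 0.09 for Des.

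Myocd, the coactivator, stood at 2.17 in lung, 3.08 in esophagus, 2.04 in the stomach and 2.01 in intestine by its brightest probe. Esophagus stood apart while the other 3 organs lay within 0.15 of each other. The difference was 1.04 for esophagus over stomach (2.05-fold) and 1.07 for esophagus over intestine (2.09-fold), against yardsticks between probes of 0.51 and 1.04. A second Myocd probe, designed to another RefSeq transcript of the gene, gave much the same for the gut segments, 1.18 and 1.1. It differed for lung. There it read −1.31 in lung, 1.47 in esophagus, 0.29 in the stomach and 0.37 in intestine, so that lung was 6.86-fold below esophagus by this probe and 1.89-fold below by the brighter one.

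The regulators around Myocd were read from a list of 12, of which 10 were measured. None of the 10 was 2-fold apart between esophagus and stomach, a count near the 9.87% of all genes. For lung over esophagus and lung over stomach 3 were at least 2-fold higher and 3 lower of 8, and for lung over intestine 3 and 3 of 9. The shares of all genes 2-fold apart there were 25.5%, 23.9% and 20.4%. For esophagus over intestine and stomach over intestine 2 were higher and 2 lower of 10, beside 20.7% and 12.3% of all genes 2-fold apart. Srf, encoding the DNA-binding partner of myocardin, stood at 3.79 in lung, 2.33 in esophagus, 2.36 in the stomach and 2.66 in intestine, highest in lung by 2.20-fold over intestine, the next organ. Mrtfa, a coactivator of SRF related to myocardin, differed little (2.89, 2.63, 2.84 and 2.75 in the same order of organs). Its relative Mrtfb was not well above background in lung and stood at −2.68 in esophagus, −3.46 in stomach and −4.68 in intestine.

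Klf4, a repressor of contractile genes in vascular smooth muscle, stood at 0.79 in lung, 3.09 in esophagus, 2.76 in the stomach and 1.27 in intestine, 3.53-fold higher in esophagus than in intestine. The Ets factor Elk3 stood at 2.95, 1.75, 1.60 and 1.93 in lung, esophagus, stomach and intestine. Foxf1, a Hedgehog-responsive factor of gut mesenchyme, stood at −2.14, −0.04, 0.35 and −0.60, and its relative Foxf2 at 2.44, 2.86, 2.17 and 2.73. Gata6 was highest in lung (2.58, 1.45, 0.79 and 0.53), while Fhl2, a LIM protein that binds SRF, was highest in intestine (−0.35, 1.97, 1.87 and 3.23). Hopx, which antagonises SRF, was not well above background in lung and stood at −2.76 in esophagus, −3.55 in stomach and −1.35 in intestine. These regulators thus had different organs at the top. Srf, Elk3 and Gata6 were highest in lung, as was Mrtfa by only 0.06 over stomach, and Klf4 was highest in esophagus. Foxf2 was highest in esophagus on this scale but in intestine under median centring. Mrtfb was highest in esophagus among the 3 gut segments.

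Acta2, smooth muscle alpha-actin, is the actin of the thin filaments and usually the earliest of the contractile genes. It was the member whose probes disagreed most. The brightest probe (A_51_P450957, 1 spot) read 3.67 in lung, 5.89 in esophagus, 5.43 in the stomach and 4.96 in intestine, which puts stomach beside esophagus. The probe spotted 10 times (A_52_P420504) read 4.40 in lung, 5.82 in esophagus, 3.15 in the stomach and 4.71 in intestine, with SDs over the 7 to 10 spots kept of 0.05 to 0.08, which makes stomach the lowest organ. A dimmer probe (A_52_P210078, 1 spot) read −0.63, 0.12, −3.0 and −0.99 in the same organs and also had stomach lowest.

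For esophagus over stomach the Acta2 difference was therefore 0.46 (1.38-fold) by the brightest probe, but 2.67 (6.35-fold) and 3.12 (8.69-fold) by the others. For esophagus over intestine the 3 probes were close, at 0.93, 1.11 and 1.11. Lung over stomach changed its sign, at −1.75 by the brightest probe and 1.26 and 2.37 by the others. The gap between probes in the stomach comparison is many times the spread over spots, and its source was not tested. All counts of members below use the brightest probe, as does the share for all genes.

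**Figure D2:**
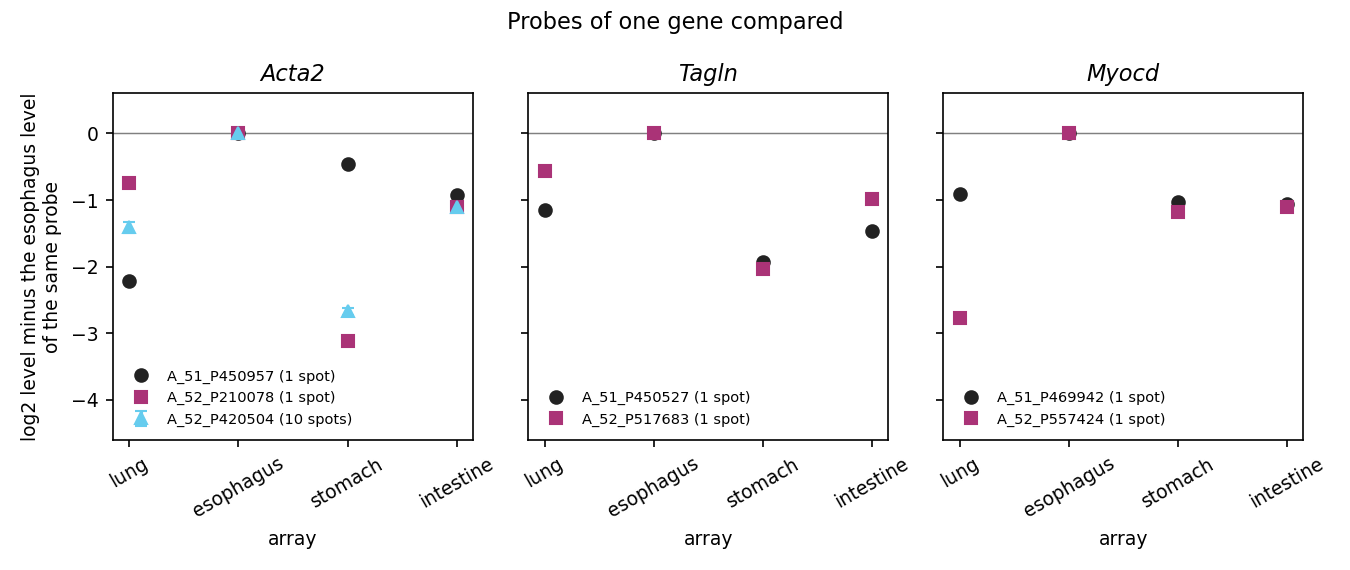
Log2 level of each probe of Acta2, Tagln and Myocd on the 4 arrays, minus that probe's own esophagus level (vertical axis), 1 point per array. Bars are the SD over the kept spots of the 10-spot Acta2 probe. The Acta2 probes separate by up to 2.66 on the stomach array and the Myocd probes by 1.86 on the lung array, while the Tagln probes stay within 0.59 of each other.

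The proximal promoter of Acta2 is shown because it is the 1 measured member with CArG-type boxes in the window at hand, and that of Cnn1 because it had the second largest esophagus-over-stomach difference by brightest probes and no such box there. Both are the 250 bases before the RefSeq start in build GRCm38.p6, Acta2 at chr19:34255374-34255623 on the minus strand and Cnn1 at chr9:22099003-22099252 on the plus strand, 5′ to 3′, with boxes in capitals.
Acta2: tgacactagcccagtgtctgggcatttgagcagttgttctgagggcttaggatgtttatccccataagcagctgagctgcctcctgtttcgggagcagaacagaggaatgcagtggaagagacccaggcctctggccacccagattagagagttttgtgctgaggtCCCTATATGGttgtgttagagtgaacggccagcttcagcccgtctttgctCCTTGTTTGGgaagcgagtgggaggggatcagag
Cnn1: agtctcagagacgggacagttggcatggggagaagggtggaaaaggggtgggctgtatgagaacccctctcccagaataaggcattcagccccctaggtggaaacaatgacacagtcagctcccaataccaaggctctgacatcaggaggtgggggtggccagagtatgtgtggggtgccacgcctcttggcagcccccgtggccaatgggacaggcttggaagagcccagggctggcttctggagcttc

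The CArG box was searched on both strands, which its symmetry makes equivalent, in 2 forms that cannot overlap at 1 position: the exact box, and the box with 1 G or C in its A/T core. Acta2 held 2 of the second form, CCCTATATGG centred 79 bases and CCTTGTTTGG 29 bases before the annotated start. Of 32851 promoters of 300 bases in the table (250 before and 50 after a start), 1.63% held the exact box and 8.50% the form with 1 G or C. Of the measured members 5 had a promoter there, and Des, Lmod1, Cnn1 and Smtn held neither form, which says only that these letters are not in this window.

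Actg2, enteric gamma-actin, is the actin that predominates in mature visceral muscle. It stood at 2.41 in lung, 4.54 in esophagus, 3.57 in the stomach and 3.63 in intestine by its 1 probe. Stomach and intestine were level, esophagus 1.95-fold above stomach and 1.87-fold above intestine, and lung well below all. Lung was 4.37-fold below esophagus and 2.34-fold below intestine, and Acta2 by its brightest probe and Actg2 were the members lowest in lung relative to each other organ.

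Cnn1, calponin, an actin-bound regulator of contraction, stood at 3.25 in lung, 4.76 in esophagus, 2.32 in the stomach and 2.84 in intestine. Esophagus was 5.44-fold above stomach and 3.8-fold above intestine, and lung was the second organ. Tagln, transgelin or SM22, a calponin relative on the same filaments, had nearly the same order. Its brightest probe read 3.62 in lung, 4.78 in esophagus, 2.85 in the stomach and 3.32 in intestine, and its second probe 0.96, 1.53, −0.50 and 0.55. By the brightest probe, esophagus was 3.8-fold above stomach and 2.75-fold above intestine, and by the second 4.10-fold and 1.97-fold.

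Lmod1, leiomodin, which starts new actin filaments in smooth muscle, stood at −1.0 in lung, 0.64 in esophagus, −1.01 in the stomach and −0.98 in intestine. Its level was the same in lung, stomach and intestine to within 0.03 and 3.09-fold to 3.14-fold higher in esophagus. Smtn, smoothelin, an actin-binding protein of contractile smooth muscle cells, varied least of all members. It stood at 0.13 in lung, 0.74 in esophagus, 0.57 in the stomach and 0.43 in intestine, and no pair of organs differed by more than the yardstick between probes.

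Myh11, the smooth muscle myosin heavy chain, stood at −0.06 in lung, 1.28 in esophagus, −1.62 in the stomach and −1.79 in intestine. It had the widest range of the brightest probes, 3.08. Esophagus was 7.48-fold above stomach and 8.43-fold above intestine, and lung, second in order, was 2.94-fold above stomach and 3.32-fold above intestine. Each of these differences exceeded the SD between probes of its pair. Stomach and intestine differed by 0.17.

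Des, desmin, the intermediate filament of all muscle types, stood at −1.44 in lung, −0.65 in esophagus, −1.67 in the stomach and −0.74 in intestine, with SDs over 10 spots of 0.17, 0.08, 0.09 and 0.09. Here intestine was level with esophagus (a difference of 0.09) and stomach was lowest, 2.02-fold below esophagus and 1.90-fold below intestine. By brightest probes it was the only member to pass the yardstick between stomach and intestine, at −0.92, which 2 Acta2 probes and the second Tagln probe also passed. Its sign for esophagus over intestine turned under median centring (−0.41) and quantile normalization (−0.02).

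Counted over the 9 measured genes, esophagus was above stomach for 9, and 6 were at least 2-fold higher in esophagus (Myh11, Tagln, Cnn1, Des, Myocd and Lmod1), where 5.72% of all genes were (9.87% were 2-fold apart either way, 4.15% higher in stomach). Des at 2.02-fold and Myocd at 2.05-fold lay just past that size and Actg2 at 1.95-fold just short of it. The median difference was 1.04 over the members and −0.15 over 12917 genes well above background on both arrays. With the 10-spot Acta2 probe, an alternative chosen after seeing the data, 7 genes were 2-fold higher in esophagus and the median was 1.65.

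For esophagus over intestine 9 genes were again higher in esophagus, 5 of them at least 2-fold (Myh11, Tagln, Cnn1, Myocd and Lmod1), against 11.8% of all genes (20.7% were 2-fold apart, 8.83% higher in intestine). The median was 1.07, with −0.12 over all genes. Median centring left 3 genes 2-fold apart and a median of 0.57. That scaling shifts the median of all genes by −0.50 in this pair. The members' median minus that of all genes was 1.19 under both scalings.

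Between stomach and intestine, by brightest probes, the number at least 2-fold apart was 0 of 9, where 12.3% of all genes were (7.34% higher in stomach and 5.01% in intestine). By any amount 4 were higher in stomach and 5 in intestine, with a median of −0.02 (0.03 over all genes), and under median centring 1 and 8. By the 10-spot probe Acta2 was 2.94-fold lower in stomach, which makes the count 1, and it was 4.03-fold lower by the dimmer probe. The second Tagln probe was 2.08-fold lower in stomach. As to an ordered decline along the tube, 2 of 9 (Myh11 and Myocd) stood lower at each step from esophagus through stomach to intestine with at least 2-fold between the ends, against 8.64% of all genes. Stomach minus intestine was only 0.17 for Myh11 and 0.03 for Myocd, below the yardstick of 0.75. The second Myocd probe read higher in intestine (0.37) than in stomach (0.29). Under median centring the count was 0. A higher level at each step was seen for 0 of 9, against 6.04%. Intestine was the lowest of the 3 segments for 4 of 9, against 34.3%. Stomach lay below both neighbours by any amount for 5 of 9 (Actg2, Tagln, Cnn1, Des and Lmod1), where 17.3% of genes did, with stomach minus intestine at only −0.06 for Actg2 and −0.02 for Lmod1, and in 0 of 9 by 2-fold on both sides (0.754% of genes).

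Lung was below esophagus for 9 of 9 genes. At least 2-fold lower in lung were 6 (Acta2, Actg2, Myh11, Tagln, Cnn1 and Lmod1), against 9.57% of all genes (25.5% were 2-fold apart, 15.9% higher in lung), with a median of −1.35 where all genes stood at 0.37. Median centring, which shifts all genes by 0.59 in this pair, left 3 genes and a median of −0.75. The members' median minus that of all genes was −1.71 under both scalings. Against stomach and intestine lung had no common direction. At least 2-fold apart were 3 of 9 in each pair, where 23.9% and 20.4% of all genes were, with Myh11 higher in lung and Acta2 and Actg2 lower. Over all genes 14.0% were higher in lung and 9.87% in stomach in the first pair, and 11.8% in lung and 8.59% in intestine in the second. With the 10-spot Acta2 probe Acta2 was 2.39-fold higher in lung than in stomach. Median differences were 0.12 for lung over stomach and −0.02 for lung over intestine. For Myh11, Tagln, Cnn1 and Myocd lung was the second organ by the brightest probe, which held for 15.2% of all genes. Under normexp this count was 2 of 9, with Tagln, Cnn1 and Myocd lower in lung than in stomach, and the second Myocd probe had lung lowest.

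**Figure D3:**
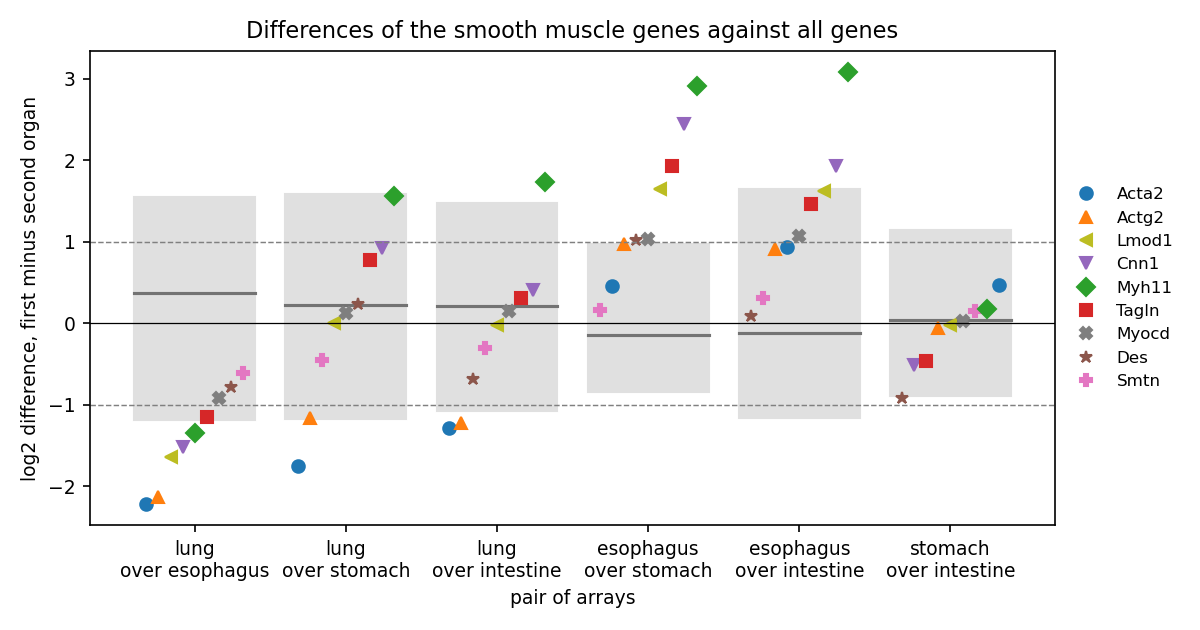
Log2 difference (first minus second organ, vertical axis) of the 9 measured genes in the 6 pairs of arrays, 1 symbol per gene by its brightest probe. Grey boxes span the 5th to 95th percentile of all genes well above background on both arrays and grey lines their median, and dashed lines mark 2-fold. Over stomach and over intestine all 9 symbols for esophagus lie above 0 (under median centring Smtn turns for both and Des for intestine), while for stomach over intestine they straddle it.

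Other smooth muscle genes were read from a list of 28, of which 27 were measured. For esophagus over stomach 8 of the 25 that could be compared were at least 2-fold higher in esophagus and 1, Pdlim3, in stomach, with a median of 0.39, where 5.72% and 4.15% of all genes were. Among the 8, Hspb7 and Jph2 are bounds, as neither was well above background in stomach. For esophagus over intestine the counts were 9 and 1 of 27, with a median of 0.18, beside 11.8% and 8.83% of all genes. For stomach over intestine they were 2 and 2 of 27, near the 12.3% of all genes 2-fold apart. Against lung the list went otherwise than the members. Of 23 genes compared with esophagus, 6 were at least 2-fold higher in lung and 4 in esophagus (median −0.14), beside 15.9% and 9.57% of all genes. Of 22 compared with stomach, 9 were higher in lung and 3 in stomach (median 0.54), beside 14.0% and 9.87%. For lung over intestine the counts were 6 and 2 of 22, beside 11.8% and 8.59%. Of the 4 brightest genes of the list, Tpm1, a tropomyosin of the thin filaments, stood at 3.02 in lung, 4.60 in esophagus, 3.40 in the stomach and 3.57 in intestine, while Flna, filamin A, and the LIM protein Csrp2 spanned 0.30 and 0.34 over the 4 arrays. Pgm5, a protein of muscle adhesion sites, was lower in lung (2.74) than in esophagus (4.43), stomach (4.44) and intestine (4.50).

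Other forms of the same proteins differed in their patterns. Nonmuscle Actg1 stood at 8.07 in lung, 6.93 in esophagus, 6.99 in the stomach and 6.90 in intestine, and the common light chain Myl6 at 7.81, 7.62, 7.51 and 7.37. In both, esophagus, stomach and intestine lay within 0.25 of each other. Vim, the intermediate filament of mesenchyme, stood at 6.15, 5.39, 5.30 and 5.48. Myl12b, a nonmuscle light chain, stood at 5.65, 4.84, 5.12 and 5.17. Actb, nonmuscle beta-actin, named after its value was seen, was highest in esophagus like the members, at 2.60 in lung, 4.17 in esophagus, 3.97 in the stomach and 2.20 in intestine. Nonmuscle Myh9 and Cnn2, named likewise, were also highest there (5.34 and 3.90) but by little. Myh9 led stomach by 0.32 and intestine by 0.38, and Cnn2 led intestine by 0.16, all within the yardstick between probes. Median centring shifts all genes by −0.50 for esophagus over intestine, more than either gap there. Of 15 paralogs compared, 3 were at least 2-fold higher in esophagus than in stomach and 1 in stomach, beside 5.72% and 4.15% of all genes. The 3 were the striated forms Acta1, Actc1 and Lmod3, and the 1 was Tagln3. Actb, Myh9 and Cnn2 were not 2-fold apart there (0.21, 0.32 and 0.34). The striated actins differed strongly: Actc1, cardiac alpha-actin, named after its value was seen, stood at −0.18 in lung, 4.15 in esophagus, −0.25 in the stomach and 1.54 in intestine.

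Heart muscle genes were also highest in esophagus. Of 11 markers, 4 were well above background in lung, 11 in esophagus, 9 in the stomach and 10 in intestine, and their summed signal relative to the 75th percentile was 8.71, 112, 2.78 and 1.26 in that order. For esophagus over stomach 10 of 11 were at least 2-fold higher in esophagus, where 5.72% of all genes were. Myl7, the atrial light chain, stood at 2.51 in lung, 6.01 in esophagus, 0.16 in the stomach and −1.05 in intestine, and Tnnt2, cardiac troponin T, at 0.37, 3.49, −2.31 and −3.37. Myh7 and Myl4 were also highest in esophagus, at 1.63 and 3.86. Lung was second for Myl7, Myl4 and Tnnt2, while Myh7 was not well above background there and at least 4.17-fold lower than in stomach. The part of heart RNA in the esophagus and lung levels of the smooth muscle genes, the members and the other list alike, was not tested.

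Skeletal muscle markers numbered 10 measured of 11, with 3 well above background in lung and 7 in each other organ, and summed signals of 1.68 in lung, 8.02 in esophagus, 2.32 in the stomach and 1.48 in intestine. Myh8, a perinatal myosin, stood at 1.40 in esophagus and was not well above background in intestine, while Mylpf, the fast light chain, stood at 0.28 in esophagus and −1.97 in stomach. Tnni2, a fast troponin, was instead highest in stomach, at −0.03 in esophagus, 0.72 in the stomach and −0.004 in intestine, and Tnnt3 stood at −2.43, −2.97 and −3.15. Myf5, Myf6 and Ckm were not well above background in esophagus. Myod1, Myog and Tnnc2 stood at −2.36, 0.23 and 0.67 in esophagus and at −4.94, −4.97 and −4.05 in stomach. Of the 7 markers compared between these organs, 5 were at least 2-fold higher in esophagus and 0 in stomach, where 5.72% and 4.15% of all genes were. The sum of the skeletal list was also highest in esophagus, and its part in the levels of the smooth muscle genes was not tested.

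Markers of other cell types were summed in the same way. Summed signals of 6 mural cell genes, which mark the muscle of vessels, were 16.9 in lung, 14.8 in esophagus, 16.2 in the stomach and 12.0 in intestine. Among them Pdgfrb stood at 3.29 in lung, 2.10 in esophagus, 1.11 in the stomach and 1.38 in intestine, and Kcnj8 at 0.40, 1.49, 2.70 and 0.88. Summed signals of 7 endothelial genes were 13.2, 12.8, 10.2 and 14.2. Of 6 mural genes, 1 was at least 2-fold higher in esophagus than in stomach and 1 lower, beside 5.72% and 4.15% of all genes. Mesenchyme genes summed to 256 in lung, 319 in esophagus, 215 in the stomach and 174 in intestine, and epithelial genes to 42.6, 31.1, 91.6 and 46.3. The high epithelial sum in stomach rests on the keratins Krt18 (5.87) and Krt8 (4.88), while Epcam (−0.14) was lower there than in lung (0.21) and intestine (0.11). The part of the mix of tissues in the smooth muscle gene levels was not tested.

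**Figure D4:**
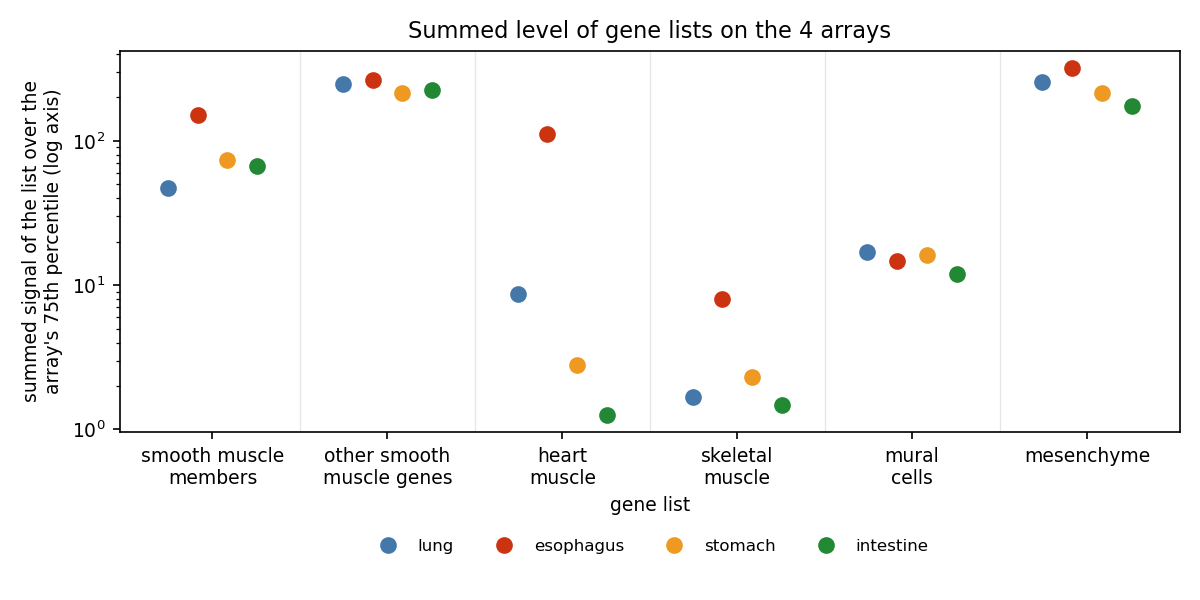
Summed signal of 6 gene lists relative to the array's 75th percentile (vertical log axis) on the lung, esophagus, stomach and intestine arrays, 1 point per array. The smooth muscle genes sum to 47.3 in lung, 152 in esophagus, 73.9 in the stomach and 67.4 in intestine, and the heart list has the widest spread, 112 in esophagus against 1.26 in intestine. A sum is led by its brightest probes. Acta2 enters by its brightest probe, at 5.43 in stomach, where its 10-spot probe read 3.15, so the stomach sum depends on that choice.

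Genes of similar pattern were ranked by the root mean square difference between their centred levels on the 4 arrays and the median centred profile of the members (−0.31 in lung, 1.0 in esophagus, −0.42 in the stomach and −0.31 in intestine). Of 3757 genes varying by at least 1 on the log2 scale, the 10 nearest outside the members were Htra3, Pcp4, Lims2, Cd55, Zfp936, Ppp1r14c, Kdm5b, Bmp2k, Dact1 and Pkdcc, at distances of 0.07 to 0.18. Among the members Lmod1 (rank 5 of all) and Myocd (rank 11) lay nearest and Myh11 (rank 1267) and Acta2 (rank 728) furthest, while Smtn varied too little to be ranked. Nearest to Acta2 by its brightest probe were Bgn, P4ha2 and Thrap3, nearest to Actg2 were Ybx3, Fn1 and App, and nearest to Myh11 was Kctd12. With 4 arrays such likeness describes levels only.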

How the data were processed

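The authors extracted spots from the scans with version 10.5.1.1 of Feature Extraction, an Agilent program, using its GE1_105_Dec08 protocol on design 014868 (build mm8), per the file headers. RNA was labelled by a low-input amplification kit, per the labels' protocols. The deposited signals are intensity values from which background was taken. Spatial and multiplicative detrending have entries in the statistics of the file headers. The deposited series table holds log2 values that tracked the levels used here (r at least 0.99996 on each array, column medians −3.56, −2.97, −3.17 and −3.47 for lung, esophagus, stomach and intestine); its scaling is known only from that match. Non-control spots without an outlier flag were averaged per probe (69 probes dropped), and 24375 of 41174 probes took 1 symbol by unversioned accession from the RefSeq table of GRCm38.p6. A gene's value is that of its brightest probe. A gene not well above background on 1 array of a pair was given a bound where its level on the other array lay above the dim array's lowest resolvable level (or the dim gene's own, if higher), and otherwise no value. A 2-fold difference is a size, not a test.

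The members and lists were chosen with earlier results of these data known. The rule for named genes took all members with every probe, all measured regulators, the 4 brightest of each other list (some given here only within their list's sum) and the nearest profiles. Pdlim3, Hspb7, Jph2, Acta1, Actc1, Lmod3, Tagln3, Actb, Myh9, Cnn2, Myod1, Myog, Tnnc2, Myf5, Myf6 and Ckm were named after their values were seen. Of the profiles nearest to Myh11 only the first is reported here. Alternatives were median centring, a percentile over probes bright on all arrays, quantile normalization, normexp (offset 50, on the median spot signal, the mean not being in the files), the deposited table, the mean of probes and no filter. The differences between pairs of arrays, with their bounds, were tested on simulated levels with known large changes. The other steps were not tested in that way. Tools were Python 3.11.15, numpy 2.4.6, pandas 2.3.3, R 4.3.3 and limma 3.58.1.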

Additional observations from a re-analysis of the deposited data

How the results depend on the processing

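Shares of all genes were counted only on the scale reported above, so counts under other settings have none beside them. Over 6 pairs, medians and 2-fold counts of the members changed as follows. Median centring gave medians of −0.75 for lung over esophagus (3 genes 2-fold apart), 0.073 for lung over intestine, reversed, and 0.57 for esophagus over intestine (3 genes), 1 gene 2-fold apart for stomach over intestine and 0 genes falling along the tube; it shifts the median of all genes by 0.59, 0.09 and −0.50 in the 3 pairs first named. The lung over stomach median reversed to −0.085 when only probes bright on every array set the percentile, and to −0.32 under normexp, which gave −0.76 for lung over intestine. The mean of all probes gave 1.65 for esophagus over stomach, 1 gene 2-fold apart for stomach over intestine and 1 falling. Using the 10-spot Acta2 probe, chosen after seeing the data, gave 1.65 and 1. Acta2 for lung over stomach reversed to 0.62 with the mean of its probes and to 1.26 with the 10-spot probe; the probes themselves differ. Otherwise the cause was not tested. Quantile normalization left all 13 summary results on the same side. Each stayed within the standard error of a median that the SD between probes gives, or within 1.5 times for a count. The deposited table and the absence of a filter did the same, but neither was a separate check. Every member probe was well above background on every array, so dropping the filter could not change a member's value. The deposited values tracked the levels used here with r of at least 0.99996 on each array. Dim signals limit the lung array, where Des and Lmod1 lie 1.02 and 1.45 above its lowest resolvable level. No paired analysis was possible because each organ has 1 array.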

Other observations

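Lists of other cell types of the gut wall, which enter no comparison above, differed between the arrays in other ways. Of 4 measured enteric neural crest genes, which mark the nerve cell precursors that migrate along the gut, 4 of 4 were at least 2-fold higher in stomach than in esophagus, as 4.15% of all genes were, and their summed signals relative to the 75th percentile were 1.254 in lung, 2.63 in esophagus, 7.70 in the stomach and 6.53 in intestine. Elavl4, a neuronal RNA-binding protein, stood at −0.38, 0.60, 2.14 and 1.96 in those organs. Of 3 genes that mark interstitial cells of Cajal, the pacemakers of gut muscle, 3 of 3 were at least 2-fold lower in esophagus than in intestine, as 8.83% of all genes were. Kit, their receptor kinase, stood at −0.78 in esophagus and 0.31 in intestine, and the chloride channel gene Ano1 at 0.23 and 1.42. Mesothelial genes summed to 3.8 in lung, 2.28 in esophagus, 3.01 in the stomach and 3.26 in intestine.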
